A study of Mus musculus with 3 samples.

Results

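Müller glia in which no Lcn2 transcript was detected were examined in single-cell RNA-seq libraries of mouse retina. Lcn2 (chr2:32384637-32387739, GRCm38.p6) encodes lipocalin-2, a secreted protein that binds iron-carrying siderophores and that reactive glia make. The cells were those that the authors placed in cluster 0 and that held 0 unique molecular identifiers (UMIs, the count of captured transcript molecules) of Lcn2. They numbered 3808 of the 15242 cells in the data (24.98%), with 521 in wild-type mice (WT), 1839 in untreated rd10 mice (rd10-vehicle) and 1448 in rd10 mice on drug chow (rd10-TMB). The label was checked against 6 Müller glia markers, whose levels were far higher than in the cells outside cluster 0. Glul, for instance, was at 9192, 7638 and 8400 CPM (UMIs of the gene per 1000000 UMIs of the cells examined in that library) in WT, rd10-vehicle and rd10-TMB, against 207, 412 and 309 CPM outside the cluster. Because the cluster was drawn from these same transcripts, this is a description of the cells and not a test.

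All mice were aged 8 weeks, were labelled as C57BL/6J and had lived in the dark from birth. The rd10 mice carry a point mutation in Pde6b, the gene of a rod phosphodiesterase subunit, and lose their rods and later their cones; dark rearing slows that loss. TMB stands for tamsulosin, a blocker of alpha-1 adrenergic receptors, metoprolol, a blocker of beta-1 adrenergic receptors, and bromocriptine, an agonist of D2-like dopamine receptors, all mixed into the chow, while WT and rd10-vehicle mice ate the same base chow without drugs. Per the labels, each group was 1 library made from 1 retina of each of 4 mice, with 2 females and 2 males in WT and females only in both rd10 groups; for both rd10 libraries the study's own text counts fewer animals. As a single library stood for each group there was no replicate and no test, library and group cannot be told apart, and every 95% interval covers counting error only. Sex is also mixed into each comparison with WT, where, of the 521 cells, 242 showed only Xist, 154 only Y-linked transcripts, 21 both and 104 none of these.

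Müller glia span the whole depth of the retina and serve its neurons. They take up glutamate and turn it into glutamine, carry potassium and water away from active neurons, handle retinoids for the cones, and exchange lactate and bicarbonate. When photoreceptors are injured they become reactive: they build intermediate filaments of GFAP, secrete protease inhibitors, complement proteins, metallothioneins and chemokines, and lower some of their support functions. Signals through gp130 receptors and STAT3 are a well known route into that state, and LCN2 is among the proteins that reactive glia secrete.

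The share of cluster 0 cells without an Lcn2 UMI was 98.3% in WT (521 of 530, exact Clopper-Pearson 95% interval 96.8 to 99.2%). It was 73.8% (1839 of 2492, 72.0 to 75.5%) for the rd10-vehicle library and 82.8% (1448 of 1748, 81.0 to 84.6%) for the rd10-TMB library. A zero depends on depth, and the median depth of the cells examined was 6271, 8175 and 9064.5 UMIs in the same order. After each cell was thinned to 1000 UMIs the shares were 99.1%, 87.5% and 93.2%, and after thinning to 3000 UMIs they were 98.3%, 80.6% and 88.8%. At each depth rd10-TMB lay between the other libraries. An Lcn2 UMI was also found in 0.593%, 1.62% and 2.41% of rod-like cells of cluster 1 and in 0%, 1.23% and 1.08% of bipolar-like cells of cluster 2. The median depths of these clusters were 1454.5 and 4090 UMIs, against 8652.5 in cluster 0. Whether these UMIs were free RNA in the droplets or RNA of the cells themselves was not tested. Just across the limit, 2, 177 and 99 cluster 0 cells held exactly 1 Lcn2 UMI. The cells without Lcn2 summed to 3222249, 14741761 and 12713947 UMIs, their median number of detected genes was 2538, 2946 and 3108.5, and the median mitochondrial share of their UMIs was 5.45%, 6.31% and 6.61%. The WT sum is the smallest, so ratios against WT mostly carry wider intervals than those between the rd10 libraries.

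Across all genes with at least 50 UMIs over both libraries, 350 of 11723 were at least 2-fold higher in rd10-vehicle than in WT (2.99%) and 246 were at least 2-fold lower (2.1%). In rd10-TMB against WT, 232 of 11485 were at least 2-fold higher (2.02%) and 182 at least 2-fold lower (1.58%). Between the rd10 libraries, with a limit of 1.5-fold, 126 of 12344 genes were higher in rd10-TMB (1.02%) and 253 were lower (2.05%). The counting interval excluded equality for 342 of the 350, 246 of the 246, 230 of the 232, 182 of the 182, 91 of the 126 and 214 of the 253 genes. The median log2 ratio over all genes was -0.07, -0.09 and -0.02 in these comparisons, all log2 ratios being of CPM with a pseudocount of 1 UMI per library. The comparisons against WT share the WT library and those with rd10-vehicle share that library, so their values are set side by side only. Values given in threes below are in the order WT, rd10-vehicle and rd10-TMB.

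Reactive glia genes stood out in the rd10 cells although no Lcn2 was detected in these cells. Of 36 listed genes, 35 could be compared between rd10-vehicle and WT: 31 were higher and 2 lower beyond the counting interval (12.1% and 17.1% of all genes), and 23 were at least 2-fold higher, against 2.99% of all genes. The list median was 1.76 on the log2 scale. However, 7 of the 35 reached 50 UMIs only through the library where they were high, so that for them the filter itself fixed the difference: Timp1, Cxcl10, Ccl2, Steap4, Edn2, Bcl3 and Prss56. Over the other 28, which would have reached it at the lower of their levels, 25 were higher and 1 lower beyond the interval (11.4% and 17.2% of all such genes), 17 were at least 2-fold higher (1.88%), and the median was 1.38. The study picked Gfap, C4b, Mt1, Mt2, Atf3, Nupr1 and Cd44 as stress genes on these libraries, so their direction is not independent evidence. In rd10-TMB against WT, 31 could be compared, of which 25 were higher and 4 lower beyond the interval (10.5% and 18% of all genes), 16 were at least 2-fold higher (2.02% of all genes), and the median was 1.01. The medians of 1.76 and 1.01 cover different genes, and over the 31 genes compared with WT in both rd10 libraries they were 1.43 and 1.01. Without 3 genes that reached the minimum only through rd10-TMB, 22 of 28 were higher and 4 lower than in WT (10% and 18% of all such genes), with a median of 0.87. Between the rd10 libraries, 26 of 35 were lower and 1 was higher in rd10-TMB beyond the interval (11.5% and 8.59% of all genes), 10 were at least 1.5-fold lower (2.05% of all genes), and the median was -0.39; over the 33 that reached the minimum at the lower level, 24 were lower and 1 higher, with a median of -0.36. The summed level of the list was 8138, 19859 and 15933 CPM.

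**Figure D1:**
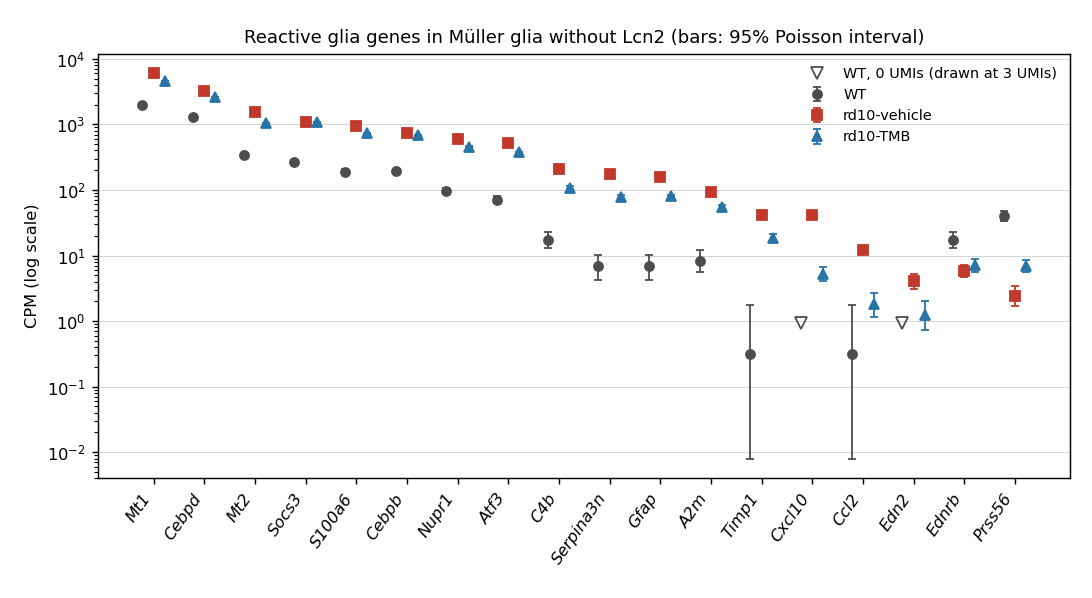
Levels of 18 reactive glia genes in Müller glia without Lcn2, in CPM on a log axis, with 1 point per library (WT circles, rd10-vehicle squares, rd10-TMB triangles) and exact 95% Poisson intervals as bars. Open triangles mark 0 UMIs in WT and are drawn at the level of 3 UMIs. For most genes rd10-TMB lies between WT and rd10-vehicle, Socs3 is at about the same level in both rd10 libraries, and Prss56 and Ednrb are higher in WT than in either.

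Gfap (chr11:102887336-102897200) encodes the intermediate filament protein that defines reactive glia. It was at 6.83, 159 and 79.5 CPM, so both rd10 libraries were far above WT and rd10-TMB was about midway on the linear scale. The log2 ratio was 4.47 for rd10-vehicle over WT (3.94 to 5.21), 3.48 for rd10-TMB over WT (2.94 to 4.22) and -0.99 for rd10-TMB over rd10-vehicle (-1.10 to -0.89). Serpina3n (chr12:104406646-104414334), a secreted serine protease inhibitor, was at 6.83, 173 and 78.9 CPM, and the ratio between the rd10 libraries was -1.14 (-1.24 to -1.03). A2m, a broad protease inhibitor, was at 8.38, 92.7 and 54.7 CPM (-0.76 between the rd10 libraries, -0.89 to -0.63). Timp1 (chrX:20870166-20874737), an inhibitor of matrix metalloproteinases, had 1, 602 and 238 UMIs, or 0.31, 40.8 and 18.7 CPM. Since WT held 1 UMI, its log2 ratio of 6.04 over WT in rd10-vehicle has an interval of 4.56 to 12.35, and that in rd10-TMB, 4.92, one of 3.42 to 11.22. All of these were lower in rd10-TMB than rd10-vehicle beyond counting error and far above WT in both.

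The same transcripts were looked at in neurons of these libraries. Gfap was at 2.78, 11.6 and 6.33 CPM in the rod-like cells of cluster 1 and at 0, 6.12 and 4.82 CPM in the bipolar-like cells of cluster 2, in the order WT, rd10-vehicle and rd10-TMB. Serpina3n was at 1.11, 12.8 and 10.3 CPM in cluster 1 and at 0, 14.5 and 5.56 CPM in cluster 2. Timp1 had at most 3 UMIs in any library of either cluster. A2m differed from these: at 3.56, 94.0 and 50.01 CPM it was about as high in the bipolar-like cells as in the Müller glia, while rod-like cells had 0, 12.8 and 6.33 CPM. The 9 bipolar markers summed to 98.6 CPM over cluster 0, against 24556 CPM over cluster 2, and the part of bipolar RNA in the A2m level of the glia was not tested. The whole reactive list summed to 288, 1701 and 959 CPM in cluster 1 and to 861, 1426 and 1210 CPM in cluster 2. Not every cluster had this order. The list was highest in rd10-TMB in cluster 3, at 1103, 1454 and 1579 CPM, and in cluster 11, at 3105, 5809 and 5856 CPM. In cluster 10 it was lowest in rd10-vehicle, at 805, 715 and 796 CPM. The part of free glial RNA in this was not tested.

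The metallothioneins, which bind zinc and copper, were abundant throughout. Mt1 was at 1975, 6005 and 4549 CPM, and Mt2 at 338, 1518 and 1049 CPM. Their log2 ratios between the rd10 libraries were -0.40 (-0.42 to -0.39) and -0.53 (-0.56 to -0.50). Mt3, the form known from neurons and astrocytes, was at 215, 341 and 348 CPM and did not differ between the rd10 libraries beyond counting error (0.03, -0.03 to 0.09). Among stress-induced transcription factors, Atf3 was at 71.1, 511 and 374 CPM and Nupr1 at 97.4, 602 and 458 CPM, and both were lower in rd10-TMB (-0.45, -0.51 to -0.40, and -0.39, -0.44 to -0.34). Cebpd, a factor of the acute phase response, was at 1302, 3190 and 2624 CPM (-0.28 between the rd10 libraries, -0.30 to -0.26), and Cebpb at 196, 745 and 680 CPM.

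Receptor genes of the gp130 pathway did not share 1 order. Osmr, the oncostatin M receptor, was at 27.0, 92.3 and 62.5 CPM, with -0.56 between the rd10 libraries (-0.69 to -0.43). Il6st, which encodes gp130 itself, was at 112, 138 and 125 CPM, while Lifr, the receptor of leukemia inhibitory factor, was at 22.3, 20.1 and 16.7 CPM and thus lowest in rd10-TMB. Stat3 was at 45.0, 96.3 and 73.1 CPM (-0.40 between the rd10 libraries, -0.52 to -0.28). Socs3, a feedback inhibitor that STAT3 induces, was about equal in the rd10 libraries: it was at 265, 1093 and 1073 CPM, thus 2.04 and 2.01 above WT on the log2 scale in rd10-vehicle and rd10-TMB, with -0.03 between them (-0.06 to 0.01). Among the ligands, Lif had 3, 112 and 75 UMIs, a log2 ratio over WT of 2.63 (1.44 to 5.33) and 2.27 (1.06 to 4.97). Cntf, which encodes ciliary neurotrophic factor, was at 59.3, 80.9 and 79.0 CPM.

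Not all listed genes were higher. Prss56 (chr1:87183102-87188405), a serine protease gene of Müller glia known for its part in eye size, was at 40.3, 2.44 and 7.0 CPM. The log2 ratios over WT were -4.02 (-4.62 to -3.50) and -2.52 (-2.93 to -2.13) for the rd10-vehicle and rd10-TMB libraries, and it was the 1 listed gene higher in rd10-TMB than rd10-vehicle beyond the interval (1.5, 0.95 to 2.12). Ednrb, the endothelin B receptor, was at 17.4, 5.90 and 7.08 CPM. Its ligand gene Edn2, which injured photoreceptors are known to express, had 0, 60 and 16 UMIs. Against the limit that 3 UMIs set in WT, Edn2 was at least 4.37-fold higher in rd10-vehicle and at least 1.35-fold higher in rd10-TMB. Edn2 was higher in rod-like cells of cluster 1, at 7.79, 127 and 38.0 CPM, and the part of rod RNA in its level here was not tested. Steap4, a metalloreductase, had 0, 69 and 49 UMIs and was at least 5.03-fold and at least 4.14-fold higher.

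The chemokines Cxcl10 and Ccl2 had the lowest ratios of rd10-TMB over rd10-vehicle among the 9654 genes with at least 200 UMIs, with Xist, Tsix, 4 Y-linked genes and their 4 X-linked partners left out and other X-linked genes kept. Cxcl10 (chr5:92346638-92348889), an interferon-induced attractant of T cells, had 0, 608 and 66 UMIs in WT, rd10-vehicle and rd10-TMB. It was at least 44.3-fold higher in rd10-vehicle than in WT and at least 5.58-fold higher in rd10-TMB, and its log2 ratio between the rd10 libraries was -2.97 (-3.38 to -2.62). It was detected in few cells: 65 of the 1839 rd10-vehicle cells and 16 of the 1448 rd10-TMB cells held a UMI, 1 rd10-vehicle cell held 99, and the 10 fullest cells held 72.0% and 87.9% of the UMIs of these libraries. In rod-like cells of cluster 1 it had 0, 3 and 0 UMIs. Without the fullest cell of each library the ratio between the rd10 libraries was -3.17. Counting intervals treat molecules as independent, so for a gene held by few cells they are too narrow.

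The rd10-vehicle cells with Cxcl10 were somewhat deeper than the others, with a median of 9179 UMIs against 8125. Of the 65, 16 also held Fosl1 (24.6%, against 5.33% of all rd10-vehicle cells examined), 33 held Gfap (50.8% against 32.8%), 39 held Isg15 (60% against 39.4%), 23 held Ifit1 (35.4% against 18.2%), 21 held Rsad2 (32.3% against 11.8%), 31 held Serpina3n (47.7% against 37.5%), 18 held Timp1 (27.7% against 12.7%) and 5 held Ccl2. Among the 16 rd10-TMB cells with Cxcl10, 2 held Fosl1 (12.5%, against 3.11% of all rd10-TMB cells examined), 8 held Isg15 (50% against 40.1%), 6 held Ifit1 (37.5% against 19.9%) and 5 held Rsad2 (31.3% against 9.6%), but Gfap was held by 3 (18.8% against 17.5%), Serpina3n by 2 (12.5% against 19.3%), Timp1 by 1 (6.25% against 8.01%) and Ccl2 by none. These shares are within 1 library each and carry no test. Ccl2 (chr11:82035577-82037452), an attractant of monocytes, had 1, 178 and 23 UMIs, and its ratio between the rd10 libraries was -2.69 (-3.43 to -2.11). In rd10-vehicle 26 cells held it, 1 of them with 71 UMIs, and without the fullest cell of each library the ratio was -2.45.

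Immune response genes other than these chemokines were high in both rd10 libraries. Of 19 interferon response genes, 18 were higher than in WT beyond the interval in rd10-vehicle and 18 in rd10-TMB (12.1% and 10.5% of all genes), and 12 were at least 2-fold higher in each (2.99% and 2.02% of all genes). The list medians were 1.38 and 1.35 over WT and -0.07 between the rd10 libraries, where 2 were higher and 7 lower in rd10-TMB beyond the interval (8.59% and 11.5%). In rd10-TMB against WT, 1 of the 19 genes reached the minimum only through rd10-TMB. Without it 17 of 18 were higher beyond the interval (10% of all such genes) and 11 at least 2-fold higher (1.3%), with a median of 1.31. Isg15 (chr4:156199424-156200818), a ubiquitin-like modifier, was at 19.2, 178 and 212 CPM. Its log2 ratio was 3.19 (2.85 to 3.60) and 3.44 (3.10 to 3.85) over WT, and 0.25 between the rd10 libraries (0.17 to 0.33). After each cell was thinned to 1000 UMIs the last ratio was -0.01. Ifit1, which binds foreign RNA, was at 5.90, 73.3 and 76.8 CPM, with 0.07 between the rd10 libraries (-0.06 to 0.19), and Ifit3 at 48.1, 105 and 142 CPM (0.44, 0.34 to 0.54). Rsad2, the antiviral enzyme viperin, went the other way, at 4.66, 41.4 and 25.6 CPM (-0.69, -0.89 to -0.50). The interferon list therefore had members on either side between the rd10 libraries, and in rod-like cells Isg15 was at 1.11, 2.32 and 3.17 CPM.

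Of the 10 MHC class I pathway genes that could be compared with WT, 9 were higher in rd10-vehicle and 8 in rd10-TMB beyond the interval (12.1% and 10.5% of all genes), with medians of 1.11 and 0.96. B2m, the light chain of all class I molecules, was at 125, 348 and 334 CPM, and H2-D1, a heavy chain, at 53.1, 184 and 161 CPM. None of the 11 class I genes was higher in rd10-TMB than rd10-vehicle beyond the interval (8.59% of all genes) and 5 were lower (11.5%), each by less than 1.5-fold. Among complement genes, C4b was at 17.4, 209 and 108 CPM, with -0.95 between the rd10 libraries (-1.04 to -0.85), and Serping1, the inhibitor of C1, was at 21.7, 178 and 113 CPM (-0.66, -0.75 to -0.56). Of the 7 complement genes compared between the rd10 libraries, 5 were lower in rd10-TMB beyond the interval (11.5% of all genes) and none was higher. C3, the central component, was rare in these cells, with 5, 59 and 42 UMIs. Microglia transcripts were near 0: their 8 defining markers summed to 2.17, 5.56 and 5.51 CPM, or 7, 82 and 70 UMIs in all, and 4, 1 and 1 of the 8 were at 0.

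Immediate early genes, the transcription factors that cells make within minutes of a stimulus, were for the most part above WT in both rd10 libraries. Of 20 listed genes, 18 were higher beyond the interval in rd10-vehicle and 18 in rd10-TMB (12.1% and 10.5% of all genes), 8 of them at least 2-fold in each (2.99% and 2.02%), and 2 were lower in rd10-vehicle, with list medians of 0.63 and 0.62, and the median between the rd10 libraries was -0.00. Fosl1 reached the minimum only through the rd10 libraries, and without it 17 of 19 were higher in each. Fos was at 3940, 6097 and 5895 CPM, Maff at 16.4, 108 and 104 CPM and Egr3 at 29.5, 116 and 115 CPM. Fosl1, the FOS relative FRA1, had 0, 207 and 116 UMIs and was at least 15.1-fold and at least 9.80-fold higher than the WT limit, with -0.62 between the rd10 libraries (-0.96 to -0.29). Of 12 heat shock genes, 8 were higher and none lower in rd10-vehicle than in WT beyond the interval (12.1% and 17.1% of all genes), 2 of them at least 2-fold (2.99%), and 6 were higher and 1 lower in rd10-TMB than in WT (10.5% and 18%). Between the rd10 libraries 3 were higher and 5 lower in rd10-TMB (8.59% and 11.5% of all genes), and the list medians were 0.21, 0.13 and -0.05 in the 3 comparisons.

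**Figure D2:**
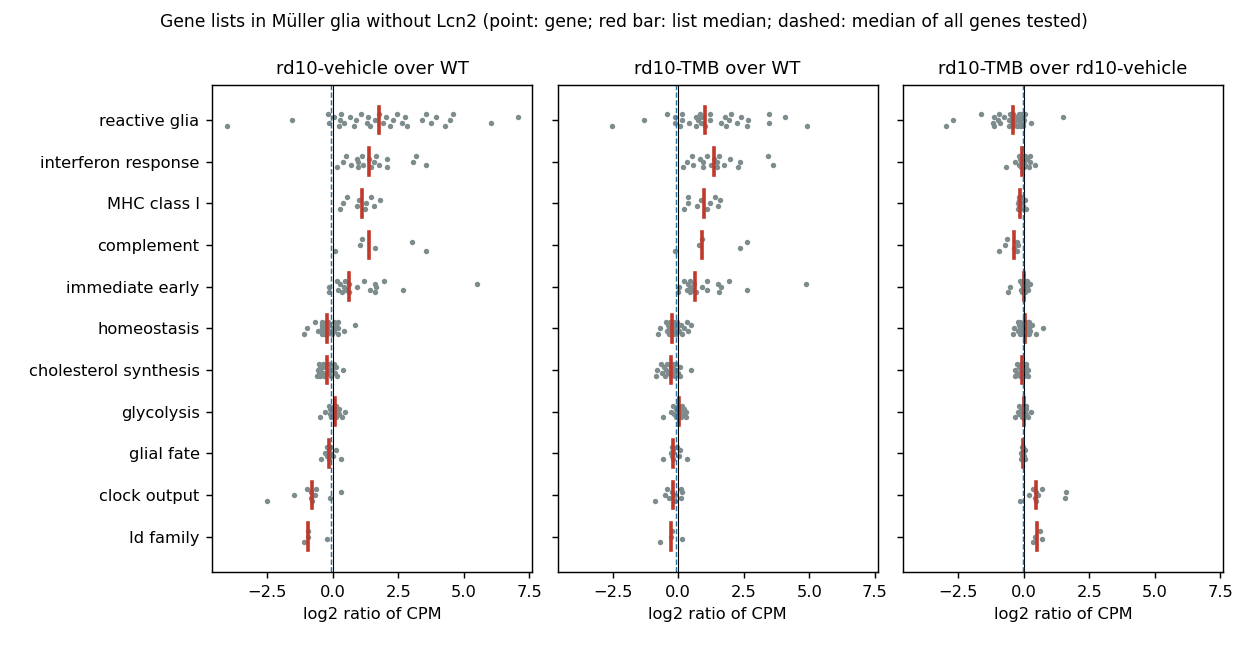
Log2 ratios of CPM for 11 gene lists in Müller glia without Lcn2, with 1 grey point per gene, a red bar at the list median and a dashed line at the median of all genes tested, for each of the 3 comparisons. The reactive glia median is 1.76, 1.01 and -0.39 from left to right, over 35, 31 and 35 genes, the clock output median is -0.81, -0.19 and 0.48, and the homeostasis median stays between -0.24 and 0.04.

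Among the genes by which Müller glia serve neurons, more were lower than higher in rd10 cells. Of 37 homeostasis genes, 30 could be compared with WT: 5 were higher and 14 lower in rd10-vehicle beyond the interval (12.1% and 17.1% of all genes), and 3 higher and 14 lower in rd10-TMB (10.5% and 18%), with medians of -0.24 and -0.22. Between the rd10 libraries 8 of 32 were higher and 8 lower in rd10-TMB (8.59% and 11.5%), with a median of 0.04. Glul (chr1:153899929-153909723), glutamine synthetase, had log2 ratios over WT of -0.27 (-0.29 to -0.25) and -0.13 (-0.15 to -0.11) and was higher in rd10-TMB than rd10-vehicle by 0.14 (0.12 to 0.15). Slc1a3, the glutamate transporter GLAST, was at 1432, 1091 and 1129 CPM, and Rlbp1, which carries retinaldehyde, at 2881, 2410 and 2424 CPM. The potassium channel gene Kcnj10 was at 243, 200 and 207 CPM, and the water channel gene Aqp4 at 1355, 1461 and 1311 CPM. These differences are beyond counting error for the most part, and each is well under 1.5-fold. That of Aqp4 between rd10-vehicle and WT changed sign over all of cluster 0, at -0.052.

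Some markers and support genes moved further. Spc25 (chr2:69193895-69206213), which encodes a kinetochore protein and serves as a Müller glia marker in retinal single-cell data, was at 2525, 1217 and 1276 CPM, or -1.05 (-1.09 to -1.01) and -0.98 (-1.02 to -0.95) against WT. Car14, a membrane carbonic anhydrase, was at 1034, 655 and 744 CPM. Rgr, a retinal opsin that helps renew cone chromophore, was at 12.1, 5.70 and 9.6 CPM, with 0.75 between the rd10 libraries (0.34 to 1.17), the 1 homeostasis gene at least 1.5-fold different there. Crym, a thyroid hormone-binding protein, was higher instead, at 812, 1472 and 1128 CPM. Of 11 genes that fix glial fate, 2 were higher and 6 lower in rd10-vehicle than in WT beyond the interval (12.1% and 17.1% of all genes) and 1 higher and 6 lower in rd10-TMB (10.5% and 18%), with medians of -0.14 and -0.20, and none differed 2-fold. Among them Sox2 was at 457, 428 and 398 CPM and Sox9 at 502, 551 and 527 CPM.

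**Figure D3:**
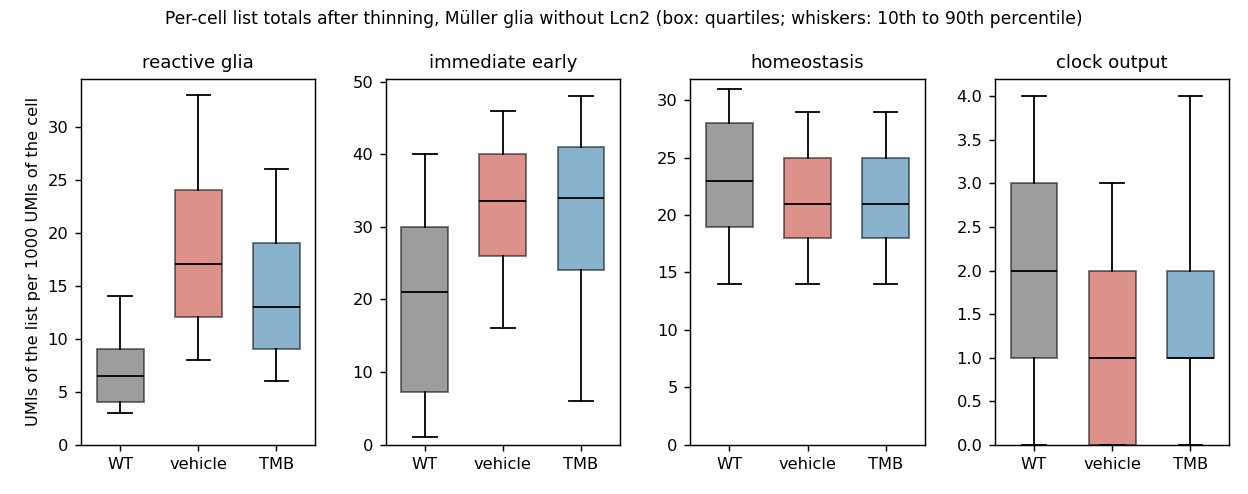
UMIs of 4 gene lists per cell after each cell was thinned to 1000 UMIs (518 WT, 1828 rd10-vehicle and 1429 rd10-TMB cells), with boxes at the quartiles and whiskers at the 10th and 90th percentiles. The reactive glia median is 6.5, 17 and 13 UMIs, the homeostasis median 23, 21 and 21 UMIs, and immediate early genes reach as low as 1 UMI at the 10th percentile in WT and 6 in rd10-TMB, against 16 in rd10-vehicle.

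Reactive UMIs were also counted cell by cell, in a sum in which abundant genes weigh most: Mt1 alone made up 6005 of the 19859 CPM of the list in rd10-vehicle. After thinning to 1000 UMIs, the median cell held 6.5 (10th to 90th percentile 3 to 14), 17 (8 to 33) and 13 (6 to 26) reactive UMIs. The 10th percentile of rd10-vehicle thus lay above the WT median, and the rd10-TMB distribution overlapped both. Homeostasis genes gave medians of 23, 21 and 21 UMIs, with the same 10th percentile of 14 in all libraries. Thinning left out 3, 11 and 19 shallower cells.

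Genes of the circadian clock were among those higher in rd10-TMB than rd10-vehicle. The clock works as a feedback loop in which CLOCK and BMAL1, the product of Arntl, bind E-box sequences and drive Per, Cry, Dbp, Tef, Hlf, Nr1d1, Nr1d2 and Ciart, whose products act back on the loop or on its output through D-box sequences. Of 10 such output and feedback genes, 8 were lower and 1 higher in rd10-vehicle than in WT beyond the interval (17.1% and 12.1% of all genes), with a median of -0.81. In rd10-TMB against WT 6 were lower and 1 higher (18% and 10.5%), with a median of -0.19. Between the rd10 libraries 9 were higher and 1 lower in rd10-TMB (8.59% and 11.5%), 3 of them at least 1.5-fold higher (1.02% of all genes), with a median of 0.48. Of these genes Ciart, Dbp, Hlf and Per3, and below Id1, Id3 and Shisal2b, are among those the study picked on these libraries, so their direction between the rd10 libraries is not independent evidence.

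The promoters of 3 of these genes are shown because they carry the letters that the clock proteins are known to bind, and that of Mt2 to set a reactive gene beside them. Each is sequence upstream of a RefSeq transcript start in GRCm38.p6, trimmed where it would enter the annotated gene and read 5′ to 3′ on the strand of the gene. Capitals mark E-boxes (CACGTG) in Ciart and Tef, D-boxes (TTATGTAA or TTACGTAA) in Per3 and metal response cores (TGCGCNC or TGCACNC) in Mt2, on either strand.
Ciart, chr3:95882258-95882478, minus strand: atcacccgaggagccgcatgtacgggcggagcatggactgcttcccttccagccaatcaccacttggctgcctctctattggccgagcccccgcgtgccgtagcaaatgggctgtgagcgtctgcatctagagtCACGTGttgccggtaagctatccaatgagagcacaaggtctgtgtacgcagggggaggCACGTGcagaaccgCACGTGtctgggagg
Per3, chr4:151044708-151044915, minus strand: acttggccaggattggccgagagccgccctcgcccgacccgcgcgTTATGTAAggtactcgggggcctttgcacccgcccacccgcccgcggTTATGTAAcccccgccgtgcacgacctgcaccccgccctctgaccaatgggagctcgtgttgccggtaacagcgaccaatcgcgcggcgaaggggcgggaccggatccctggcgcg
Tef, chr15:81802423-81802672, plus strand: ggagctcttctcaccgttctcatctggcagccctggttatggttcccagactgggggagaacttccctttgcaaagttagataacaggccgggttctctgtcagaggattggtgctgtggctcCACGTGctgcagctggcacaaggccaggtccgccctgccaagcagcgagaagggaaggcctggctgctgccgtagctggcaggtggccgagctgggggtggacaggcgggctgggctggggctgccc
Mt2, chr8:94172368-94172617, plus strand: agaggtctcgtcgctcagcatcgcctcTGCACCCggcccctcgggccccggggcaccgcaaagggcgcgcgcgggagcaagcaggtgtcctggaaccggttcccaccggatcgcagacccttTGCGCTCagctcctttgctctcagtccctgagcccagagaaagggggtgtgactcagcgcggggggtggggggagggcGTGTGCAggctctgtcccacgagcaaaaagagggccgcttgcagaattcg
The Ciart sequence holds 3 E-boxes, starting 116, 58 and 44 bases before the transcript start, and that of Per3 holds 2 D-boxes, starting 205 and 158 bases before it. Over the 250 bases upstream of 32851 RefSeq starts, 6.86% of 27025 genes held an E-box in at least 1 window and 1.10% a D-box, while by the same count 4 of the 9 clock genes with a window held an E-box and 1 a D-box. Of the 32 reactive glia genes with a window, 1 held an E-box and none a D-box, 4 held a STAT-type GAS site (TTCNNNGAA, 8.13% of all genes), 4 an AP-1 site (TGACTCA, 5.16%) and 10 a metal response core (23.8%), which 7 of the 9 clock genes held too. Matches of letters are a description and not evidence of binding.

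Ciart (chr3:95878500-95882257), a repressor of the CLOCK and BMAL1 pair, was at 154, 27.3 and 82.5 CPM. It had the lowest ratio of rd10-vehicle over WT (-2.49, -2.69 to -2.30) and the highest of rd10-TMB over rd10-vehicle (1.59, 1.43 to 1.77) of all genes with at least 200 UMIs in the comparison, with the same genes of the sex chromosomes left out as for the chemokines. Per2 (chr1:91415977-91459351), a period gene, followed with 49, 81 and 211 UMIs, or 15.2, 5.49 and 16.6 CPM. Its log2 ratio was -1.48 for rd10-vehicle over WT (-2.0 to -0.93), 0.10 for rd10-TMB over WT (-0.33 to 0.60) and 1.58 between the rd10 libraries (1.22 to 1.98). Per3 (chr4:150997018-151044707) was at 169, 94.6 and 132 CPM. The output factors Dbp, Tef and Hlf, which bind D-boxes, were at 595, 338 and 540 CPM, at 126, 80.9 and 117 CPM and at 470, 236 and 328 CPM, with ratios between the rd10 libraries of 0.68 (0.62 to 0.73), 0.53 (0.42 to 0.65) and 0.48 (0.41 to 0.54). In all 6 genes rd10-vehicle was the lowest library, and in Per2 the WT and rd10-TMB levels overlapped.

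**Figure D4:**
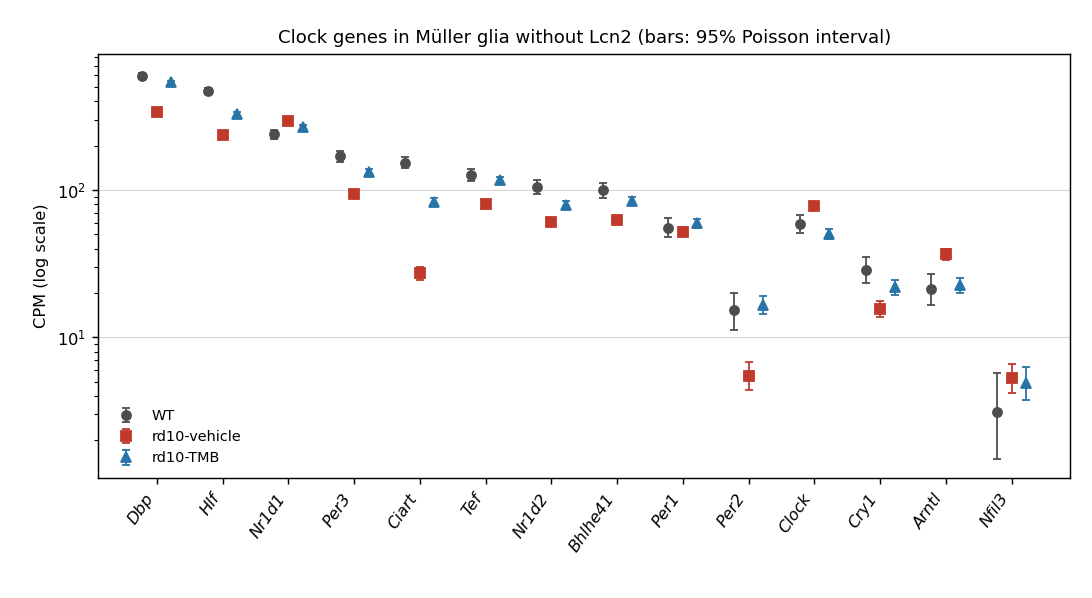
Levels of 14 clock genes in Müller glia without Lcn2, in CPM on a log axis, with 1 point per library and exact 95% Poisson intervals as bars. The 10 output and feedback genes stand on the left and 4 genes of the opposite arm on the right. Ciart is at 154, 27.3 and 82.5 CPM in WT, rd10-vehicle and rd10-TMB, while Arntl and Clock are highest in rd10-vehicle.

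In the opposite arm of the loop, Arntl and Clock were highest in rd10-vehicle. Arntl was at 21.4, 36.6 and 22.6 CPM, with 0.75 for rd10-vehicle over WT (0.41 to 1.16), 0.06 for rd10-TMB over WT (-0.31 to 0.48) and -0.69 between the rd10 libraries (-0.91 to -0.49). Clock was at 59.0, 77.8 and 50.3 CPM, with rd10-TMB the lowest library (-0.63 between the rd10 libraries, -0.77 to -0.49). The exception in the output group was Nr1d1, which encodes the repressor REV-ERB alpha, at 239, 294 and 267 CPM (-0.14, -0.21 to -0.08). Cry1, counted with the opposite arm because it peaks late, was at 28.9, 15.6 and 21.9 CPM and so followed the output genes (0.49, 0.23 to 0.74). The sources used here do not give the hour at which the retinas of each group were taken, so hour and group cannot be told apart.

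The same genes were compared in neurons of the same libraries. In bipolar-like cells of cluster 2, Dbp was at 608, 651 and 668 CPM, Per3 at 188, 180 and 216 CPM and Ciart at 24.4, 22.9 and 26.3 CPM in WT, rd10-vehicle and rd10-TMB, so none of the 3 was lowest in rd10-vehicle by a margin like that in the Müller glia. In rod-like cells of cluster 1, Per3 was at 62.8, 24.4 and 41.2 CPM and Dbp at 48.9, 39.5 and 36.4 CPM. The summed level of the 10 genes was 1945, 1927 and 1988 CPM in cluster 2, against 2002, 1143 and 1629 CPM in all cells of cluster 0. Low sums in rd10-vehicle were not particular to cluster 0: in cluster 1 the genes summed to 568, 357 and 424 CPM, in cluster 11 to 1097, 549 and 1050 CPM, in cluster 12 to 2379, 958 and 1654 CPM and in cluster 14 to 1163, 641 and 1683 CPM, the last 3 clusters holding 393, 141 and 67 cells. Endothelial markers summed to 10471 CPM in cluster 11. Whether the groups differ between cell types cannot be tested with 1 library each.

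The Id genes, which encode inhibitors of bHLH factors and are known targets of BMP signalling, had a similar order. Id1 was at 748, 393 and 610 CPM, Id2 at 404, 189 and 252 CPM, Id3 at 727, 629 and 796 CPM and Id4 at 39.7, 20.9 and 33.9 CPM. All 4 were lower than in WT in rd10-vehicle beyond the interval (17.1% of all genes), with a median of -0.93, and all 4 were higher in rd10-TMB than rd10-vehicle (8.59%), with a median of 0.52 and 2 of them at least 1.5-fold (1.02%). Tsc22d3, the glucocorticoid-induced leucine zipper, was at 51.5, 18.2 and 35.6 CPM (0.96 between the rd10 libraries, 0.74 to 1.19). Of the other glucocorticoid-responsive genes, Fkbp5 was at 48.1, 28.9 and 28.4 CPM and Sgk1 at 13.3, 29.2 and 26.1 CPM, and 3 of 8, Tsc22d3 among them, were higher and 1 lower in rd10-TMB than rd10-vehicle beyond the interval (8.59% and 11.5%), with a median of 0.01. Ddit4, also induced by lack of oxygen, was at 274, 107 and 105 CPM and was among the lowest genes of rd10-TMB over WT. Vegfa, the main angiogenic factor of the retina, was at 216, 121 and 166 CPM (0.45 between the rd10 libraries, 0.36 to 0.54).

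Among other genes at the ends of the rankings, Calca, the gene of calcitonin and its related peptide CGRP, was at 12.7, 158 and 125 CPM and ranked among the 8 highest of both comparisons with WT. Trim30a, an interferon-induced ubiquitin ligase, was at 1.24, 18.0 and 17.1 CPM, with a ratio between the rd10 libraries of 0.74 after thinning, and Rasl11a, a small GTPase of the RAS family, at 10.6, 88.3 and 76.0 CPM. Ccl27a, a chemokine gene, was lower in both rd10 libraries, at 47.2, 10.6 and 11.4 CPM. In rod-like cells it had 33, 0 and 0 UMIs and in bipolar-like cells 109, 0 and 0 UMIs, so it was also higher in WT than in rd10 outside the glia. Pcp4 and Snap25, which are best known from neurons, were at 41.6, 13.5 and 11.6 CPM and at 53.1, 19.8 and 19.9 CPM. Amacrine transcripts moved with these: their 7 markers summed to 41.9, 4.48 and 6.37 CPM in the cells examined, and the part of such RNA in the lower Pcp4 and Snap25 was not tested.

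Between the rd10 libraries, Npy, the gene of neuropeptide Y, was at 13.6 CPM in rd10-vehicle and 26.6 in rd10-TMB, against 23.6 in WT (0.97, 0.71 to 1.23). Shisal2b was at 247, 129 and 241 CPM (0.90, 0.82 to 0.98), Crispld1, a secreted protein of the CAP family, at 19.6, 6.65 and 13.4 CPM (1.01, 0.65 to 1.39) and Rgs13, a regulator of G protein signalling, at 15.5, 10.4 and 19.5 CPM (0.90, 0.60 to 1.20). In each of these rd10-vehicle was the lowest library. On the other side, Rasd1, a RAS-related protein induced by dexamethasone, was at 6.52, 18.7 and 6.84 CPM (-1.44, -1.81 to -1.09), so that rd10-TMB and WT did not differ beyond counting error. Col4a1, a basement membrane collagen, was at 2.17, 11.7 and 5.03 CPM (-1.21, -1.66 to -0.80), although its ratio of rd10-TMB over WT was -0.24 after thinning, and its partner Col4a2 at 6.21, 8.89 and 6.06 CPM. Spon2, a secreted matrix protein, was at 13.7, 20.9 and 7.71 CPM (-1.43, -1.78 to -1.11), and its ratio of rd10-vehicle over WT changed sign after thinning, to -0.10. Cryaa, a lens crystallin gene, also ranked there with 1, 173 and 61 UMIs, but 1 rd10-vehicle cell held 91 of them. That cell, of 6981 UMIs, was also the fullest for Crybb2 (87 of 217), Crygs and Cryba1, and without the fullest cell of each library the ratio of Cryaa moved from -1.28 to -0.28. Crybb2 was also found in rod-like cells, at 1.11, 23.2 and 27.7 CPM.

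Of 17 glycolysis genes 7 were higher and 4 lower in rd10-vehicle than in WT beyond the interval (12.1% and 17.1% of all genes), with a median of 0.09, and of 22 cholesterol synthesis genes none was higher and 7 were lower, with a median of -0.23. Apoe, which carries lipid between cells, was at 18278, 24058 and 24642 CPM and Clu, a secreted chaperone, at 3970, 6476 and 4888 CPM (-0.41 between the rd10 libraries, -0.42 to -0.39). Of 81 nuclear genes of the respiratory chain, 47 were higher and 3 lower in rd10-TMB than rd10-vehicle beyond the interval (8.59% and 11.5% of all genes), none by 1.5-fold, with a median of 0.11. Ribosomal protein genes had a like shift, with 64 of 81 higher and 4 lower beside the same shares of all genes and a median of 0.15. Rod transcripts moved the same way: 7 of 10 rod markers were higher in rd10-TMB (8.59%), with a median of 0.15, and they summed to 952, 1015 and 1130 CPM. The source of these rod transcripts and their part in the shift were not tested.

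Receptors of the kinds that the drugs bind were scarcely detected. Adra1a and Adra1d, alpha-1 receptor genes, had 13, 25 and 35 and 6, 49 and 26 UMIs, and Adrb1, the beta-1 receptor gene, had 5, 29 and 30 UMIs. Of 14 adrenergic and dopamine receptor genes 12 were in the matrix, and together they summed to 61.1, 55 and 64.9 CPM. Adra2c, an alpha-2 adrenergic receptor, made up most of it at 41.6, 33.4 and 41.4 CPM (0.017 for rd10-vehicle over WT after thinning), followed by the D2-like dopamine receptor gene Drd4 at 8.07, 12.3 and 12.4 CPM.

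Cells of cluster 0 that did hold Lcn2 were the nearest population to compare, and the split was made on a transcript, so what follows is a description. Over the 10190 genes with enough UMIs, 194 were at least 2-fold higher in cells with Lcn2 than in cells without it in both rd10 libraries (1.9%) and 25 were at least 2-fold lower in both (0.245%). The 8 genes with the highest mean ratio were C3, Steap4, Col1a2, Dio3os, Gfap, Hspb1, C1ql1 and A2m. C3 was at 4.00 CPM in cells without Lcn2 and 85.6 in cells with it in rd10-vehicle (4.40, 4.03 to 4.83), and at 3.30 and 57.3 CPM in rd10-TMB (4.09, 3.64 to 4.63). The 8 lowest were Hes5, Grin2b, Bfsp2, Rgs13, Hist2h4, Hepacam, Ciart and Shisal2b. Hes5 (chr4:154960626-154962372), a bHLH repressor that Notch signalling induces, was at 622 CPM without Lcn2 and 221 with it in rd10-vehicle (-1.49, -1.57 to -1.42), and at 767 and 99.7 CPM in rd10-TMB (-2.94, -3.09 to -2.80).

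**Figure D5:**
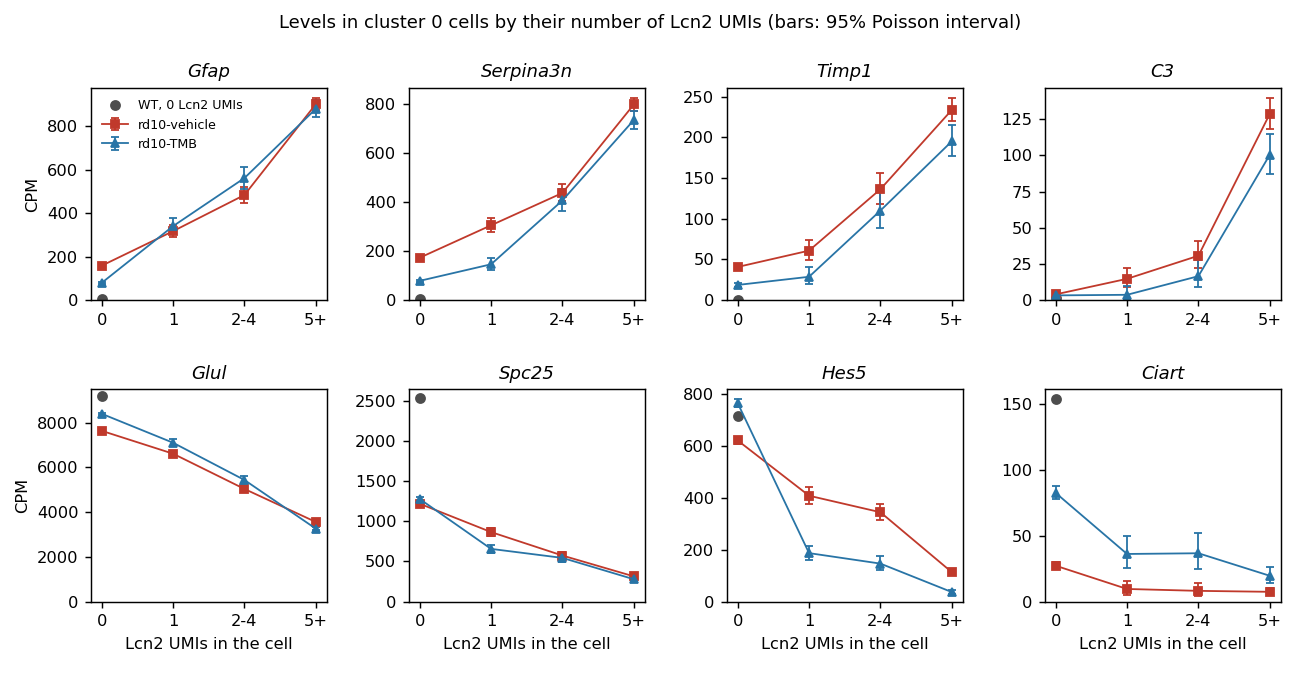
Levels of 8 genes in cluster 0 cells by the number of Lcn2 UMIs in the cell, in CPM on linear axes that start at 0, for rd10-vehicle (squares) and rd10-TMB (triangles) with exact 95% Poisson intervals, and for WT cells with 0 Lcn2 UMIs (circle). Gfap climbs from 159 to 901 CPM in rd10-vehicle and from 79.5 to 880 CPM in rd10-TMB, and Glul falls from 7638 to 3561 and from 8400 to 3262 CPM.

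Some levels changed with the number of Lcn2 UMIs and not only between none and some. Gfap was at 159, 317, 484 and 901 CPM in rd10-vehicle cells with 0, 1, 2 to 4 and at least 5 Lcn2 UMIs, and at 79.5, 340, 561 and 880 CPM in rd10-TMB cells. Glul ran the other way, at 7638, 6615, 5038 and 3561 CPM in rd10-vehicle and at 8400, 7104, 5439 and 3262 CPM in rd10-TMB. C4b changed little in rd10-vehicle, at 209, 198, 213 and 222 CPM, but was at 108, 107, 182 and 192 CPM in rd10-TMB. Socs3 was highest in a middle group of both libraries, at 1093, 1275, 1454 and 1350 CPM in rd10-vehicle and 1073, 1708, 1486 and 1397 CPM in rd10-TMB. The lower Gfap of rd10-TMB was thus seen in cells without Lcn2, whereas over all cells with Lcn2 the ratio between the rd10 libraries was -0.06 (-0.12 to 0.01). Serpina3n differed in both, by -1.14 in cells without Lcn2 and by -0.29 in cells with it (-0.36 to -0.21). Ciart, at 8.05 and 27.6 CPM in the rd10-vehicle and rd10-TMB cells with Lcn2, had a ratio of 1.76 there (1.31 to 2.25), close to the 1.59 of the cells without it. Cells with Lcn2 were deeper, at a median of 10153 and 11722 UMIs, and held more rod RNA, with 10 rod markers summing to 2298 and 2690 CPM against 1015 and 1130 in cells without Lcn2. The part of depth and of rod RNA in these differences was not tested.

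The gene lists were set beside the split in the same way. Against cells without Lcn2 in the same library, all 6 Müller glia markers were lower in cells with Lcn2 beyond the interval (13.1% and 11.7% of all genes), with medians of -0.64 and -0.74 in the rd10-vehicle and rd10-TMB libraries. Reactive glia genes were higher for 28 and 33 of 35 (19% and 19.2% of all genes), with medians of 0.43 and 0.96. The check for a minimum met at the lower level was not made for this split. Some genes may therefore have reached the minimum only through the cells with Lcn2. In rd10-TMB, Ccl2 of the reactive list had 23 UMIs in cells without Lcn2 and 135 in cells with it. Of 19 interferon response genes, 6 were higher and 4 lower in the rd10-vehicle cells with Lcn2 (19% and 13.1% of all genes) and 8 higher and 1 lower in those of rd10-TMB (19.2% and 11.7%), with medians of 0.01 and 0.07 beside 0.04 and 0.06 over all genes. The 9 WT cells with Lcn2 were too few to compare gene by gene. After thinning to 1000 UMIs they held a median of 19 reactive UMIs, against 6.5 in WT cells without Lcn2, 26 in rd10-vehicle cells with Lcn2 and 25 in rd10-TMB cells with Lcn2.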

How the data were processed

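Retinas were dissociated with papain and captured with 10x Genomics chemistry, and the authors aligned reads with Cell Ranger 6.0.1 to mm10, removed doublets and cells with fewer than 500 genes, and clustered cells in Seurat 3.2.2. Values in the deposited matrix are on a natural log scale, ln(1 + 10000 × count / total count of the cell), and the deposited cell table gives each cell's library, cluster and total count. Counts were recovered as expm1(value) × total / 10000: 32620606 of 32620606 entries lay within 0.001 of a whole number, and 15242 of 15242 cell totals matched. Barcodes of 14 of the cells examined also occur in another library.

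UMIs were summed per library, scaled to CPM and compared as log2 ratios with a pseudocount of 1 UMI, for genes with at least 50 UMIs over both libraries. Intervals are exact conditional 95% intervals for ratios, exact Poisson for sums and Clopper-Pearson for shares. They cover counting error only, and with 1 library per group no test was made. A level of 0 was bounded with 3 UMIs per library. Per-cell sums used cells thinned to 1000 UMIs. No doublet caller was run again. Apart from the flagged results, the genes named were drawn from the 6 markers, the 8 highest and 8 lowest ratios between any 2 libraries among genes with at least 200 UMIs, the 8 highest and 8 lowest mean ratios of cells with Lcn2 over cells without it among genes with at least 100 UMIs, and members of the gene lists. Not every ranked or listed gene is named. Left out of the ranks between libraries were Xist, Tsix, 4 Y-linked genes and their 4 X-linked partners, while other X-linked genes, Timp1 and Tsc22d3 among them, stayed in. Cells and lists were chosen with earlier results of these data known, and the stress genes and the genes higher under TMB were picked by the study on these libraries. Alternatives were other count minimums and fold limits, a minimum met at the lower of both levels (added after the data were seen), a pseudocount of 0.1 UMI, size factors by the median of ratios, library totals taken without rod, cone, ribosomal protein and mitochondrial genes, means over cells, thinning, only cells of at least 1000 genes, of at least 5000 UMIs or of at most 10% mitochondrial UMIs, removal of the deepest 5% of the cells or of the fullest cell for a gene (also added later), WT cells with Xist only, cells with 0 or 1 Lcn2 UMI, and all of cluster 0. Scripts were tested on simulated data and run in Python 3.11.15 with numpy 2.4.6, scipy 1.17.1 and pandas 2.3.3.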

Additional observations from a re-analysis of the deposited data

Results flagged for a closer look

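Of 11000 genes with enough UMIs in both parts of cluster 0, 49 had a ratio of rd10-TMB over rd10-vehicle that pointed opposite ways, beyond both counting intervals, in cells without Lcn2 and in cells with it. For 7 of them both ratios passed 1.5-fold, and these are given here; the difference was not tested, since each group was 1 library. Ccl2, a monocyte attractant, had a log2 ratio of -2.685 in cells without Lcn2 and 0.952 in cells with it. In cells without Lcn2, 71 of its 178 rd10-vehicle UMIs came from 1 cell, and in cells with Lcn2, 61 of its 135 rd10-TMB UMIs did. Rsad2, the interferon-induced enzyme viperin, was at -0.693 and 1.332, with 111 of its 235 rd10-TMB UMIs in cells with Lcn2 from 1 cell. Tagln, an actin-binding protein of contractile cells, was at -0.951 and 1.479, with 124 of 283 UMIs from 1 cell. Crybb2, a lens crystallin, was at -0.985 and 0.827, with 87 of its 217 rd10-vehicle UMIs in cells without Lcn2 from 1 cell. Glycam1, a mucin-like protein, was at -0.644 and 1.335. Jak3, a cytokine receptor kinase, was at -0.907 and 0.876. Kdelr3, which returns proteins to the endoplasmic reticulum, was at -0.635 and 0.589.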

How the results depend on the processing

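No paired analysis was possible because each group was 1 library. Of the values other than single genes, 207 stayed within 1.5 times the reported count or within counting error, and the 42 that moved are given here; their cause was not tested except where the setting itself tests fewer or more genes or UMIs. With each cell thinned to 1000 UMIs, 164 genes were at least 2-fold higher and 96 lower in rd10-vehicle than in WT, the reactive glia median was 1.42, 91 were higher and 71 lower in rd10-TMB than in WT, and 30 were higher and 4 lower in cells with Lcn2 in both rd10 libraries. The share without Lcn2 was then 87.5% in rd10-vehicle and 93.2% in rd10-TMB, and 80.6% and 88.8% at 3000 UMIs. With a minimum of 20 UMIs, 540 genes were lower in rd10-vehicle than in WT, 370 higher and 457 lower in rd10-TMB than in WT, 327 higher and 520 lower in rd10-TMB than rd10-vehicle, and 404 higher and 56 lower with Lcn2. With a minimum of 200 UMIs these comparisons gave 182 and 56, 115 and 33, 23 and 81, and 125 and 16 genes. With the minimum met at the lower of both levels, chosen after the data were seen, 213 genes were higher in rd10-vehicle than in WT, 139 higher and 121 lower in rd10-TMB than in WT and 83 higher in rd10-TMB than rd10-vehicle, and the reactive glia median over WT was 1.38 in rd10-vehicle. At lower fold limits they gave 781 and 1000, 546 and 942, and 609 and 1025 genes. The mean over cells gave 202 genes higher in rd10-TMB than rd10-vehicle and 113 higher with Lcn2, and 50 were lower with Lcn2 when cells with 1 Lcn2 UMI counted as without it. Against WT cells that showed Xist alone, 322 genes were lower in rd10-TMB, and with all of cluster 0, 373 were higher in rd10-TMB than in WT.

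Gene ratios past their limits or beyond counting error changed sign in 14 cases. After thinning, rd10-vehicle over WT was -0.10 for Spon2 and 0.017 for Adra2c, rd10-TMB over WT was -0.24 for Col4a1, and rd10-TMB over rd10-vehicle was -0.012 for Isg15, 0.092 for Col1a2, -0.26 for Hepacam, 0.74 for Trim30a and -0.38 for Adra1a. Against WT cells that showed Xist alone, rd10-vehicle over WT was 0.052 for Hepacam and -0.013 for Aqp4. Over all of cluster 0, rd10-vehicle over WT was -0.052 for Aqp4, rd10-TMB over WT was -0.21 for Hes5, and rd10-TMB over rd10-vehicle was -0.0066 for Apoe. Leaving out the fullest cell of each library, chosen after the data were seen, moved rd10-TMB over rd10-vehicle from -0.39 to 0.86 for Cryba1, from -1.28 to -0.28 for Cryaa and from -0.98 to -0.41 for Crybb2. Depth limits the WT side most, since it held the fewest cells and UMIs.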
